A study of Mus musculus with 4 samples.

Results

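The genes described here are 9 markers that have been used to isolate or define stem and progenitor cells of the mouse mammary gland: Kit, Aldh1a3, Procr, Prom1, Tspan8, Cd24a, Cd44, Bcl11b and Epcam. They were taken by gene symbol from the 27998 genes of a single-cell RNA-seq count matrix, and each symbol matched 1 gene. Their products are not all on the cell surface, since Aldh1a3 encodes a cytosolic enzyme and Bcl11b a nuclear transcription factor. The matrix holds cells sorted by flow cytometry from mammary glands of C57BL/B6 mice, in 4 droplet libraries: Zeb1 MSKO at 8 weeks, Zeb1 MSKO at 9 weeks, control at 8 weeks and control at 9 weeks. The Zeb1 protein, a DNA-binding zinc-finger factor, is known to repress epithelial junction genes. The labels neither expand MSKO nor say which part of Zeb1 was deleted, in which cells or with which Cre line, and they give no further genotype for the control mice and no sort markers. They also do not tie each library to its own animals. The p-values thus describe library-to-library spread, part of which could be technical. Each age holds 1 library per genotype, so age, preparation and sequencing run cannot be told apart.

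The mammary epithelium has an outer basal layer of contractile cells and an inner luminal layer. The luminal layer holds progenitors without hormone receptors, which can give rise to milk-secreting cells, and hormone-sensing cells with receptors for oestrogen and progesterone. Transplantation and lineage tracing have placed long-lived stem or progenitor cells in both layers, and surface proteins such as CD24, CD44, EPCAM and KIT serve to sort these fractions by flow cytometry.

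Cells were assigned to classes by marker genes that are not among the 9, and every result below rests on these gates. Of 36884 barcodes, 11347 passed the luminal progenitor gate alone (markers such as Csn3, Ltf and Elf5), 9264 the hormone-sensing luminal gate (Prlr, Areg, Pgr, Esr1), 11069 the basal gate (Krt5, Krt14, Acta2, Trp63), 997 the fibroblast gate, 700 the endothelial gate and 109 a leukocyte gate. A further 2379 cells passed several gates, 605 passed none and 414 exceeded 10% mitochondrial counts. The libraries held 7627 to 9790 barcodes and 80853204 to 122122443 unique molecular identifiers (UMIs), each standing for 1 captured transcript. Median depth was 14061 to 17232 UMIs in hormone-sensing luminal cells, 7487 to 8329 in luminal progenitor cells and 5528 to 7994 in basal cells. The libraries stood apart in make-up: basal cells were 63.6% of the gated epithelium in the Zeb1 MSKO library at 8 weeks and 27.2% in that at 9 weeks, against 21.4% and 29.2% in controls of the same ages. In the basal gate of Zeb1 MSKO at 8 weeks the basal markers summed to 13808 CPM, against 19973 to 22646 CPM in the other libraries. Keratinocyte or hair follicle markers there summed to 73.0 CPM, against 31.7 to 42.5 CPM. In that library 415 cells scored within 0.25 of the basal cut, against 34 to 70 in the others. The part of this in the basal values at 8 weeks was not tested. Stromal cells came almost entirely from the libraries at 8 weeks, with 357 and 7 endothelial cells in Zeb1 MSKO and 326 and 10 in control at 8 and 9 weeks. Of 36194 distinct barcode sequences, 682 occurred in several libraries. Zeb1 itself stood at 72.7 and 56.2 CPM in fibroblasts of Zeb1 MSKO at 8 and 9 weeks and at 59.4 and 85.1 CPM in those of control. Since the deleted part is not stated, these 3′ counts do not check the genotype labels.

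Zeb1 binds E-boxes of the form CACCTG or its reverse complement CAGGTG, so the promoters of the 9 genes were searched for these 6 letters on both strands, from 250 bases before to 50 bases after the RefSeq start site. RefSeq promoters of GRCm38.p6 matched 7 of the 9 genes, all but Aldh1a3 and Cd24a. Prom1 and Epcam held a match and the other 5 did not. Of 32851 promoter windows 20.2% held at least 1 match, as did 22.6% of 27025 genes, so 2 of 7 is near the level of all promoters. The 3 matches are shown with 18 bases on either side, the E-box in capitals, because they are the only ones found in the members' windows. The Prom1 match (chr5:44101935-44101976, minus strand) lies 222 bases before the RefSeq start of 1 of its 2 windows, and inside the Prom1 gene as GENCODE annotates it (chr5:43993620-44102032), and the Epcam matches lie 187 and 19 bases before the start of the plus-strand gene (chr17:87635774-87635815 and chr17:87635942-87635983).
Prom1: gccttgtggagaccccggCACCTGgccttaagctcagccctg
Epcam, distal: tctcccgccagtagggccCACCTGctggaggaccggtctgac
Epcam, proximal: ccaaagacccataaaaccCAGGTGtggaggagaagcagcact
A match to 6 letters is a description of the sequence and says nothing of binding.

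Most of the 9 genes differed between epithelial classes, as did most genes tested. In edgeR's quasi-likelihood test on UMI sums per library and class, with the library as a block (n = 4 libraries per class) and Benjamini-Hochberg adjustment over 14607 genes, 7 of the 9 differed between luminal progenitor and hormone-sensing luminal cells (5 higher and 2 lower), beside 56.9% of all genes (28.4% higher and 28.5% lower). Luminal progenitor against basal cells gave 8 of 9 (6 higher and 2 lower), again beside 56.9% of all genes (29.3% higher and 27.6% lower). Hormone-sensing luminal against basal cells gave 7 of 9 (3 higher and 4 lower), beside 70.1% of all genes (35.3% higher and 34.7% lower). Read against all genes, such counts of members are not far above the background. The median absolute log2 difference over the members was 3.97, 2.20 and 2.55 in the 3 comparisons, against 0.62, 0.62 and 0.89 over all genes tested. The members were chosen with earlier results of these data known, so these medians are a description. The first 2 comparisons share the luminal progenitor sums. Levels below are CPM (counts per 1000000), the UMIs of a gene scaled to the class total in a library.

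**Figure D1:**
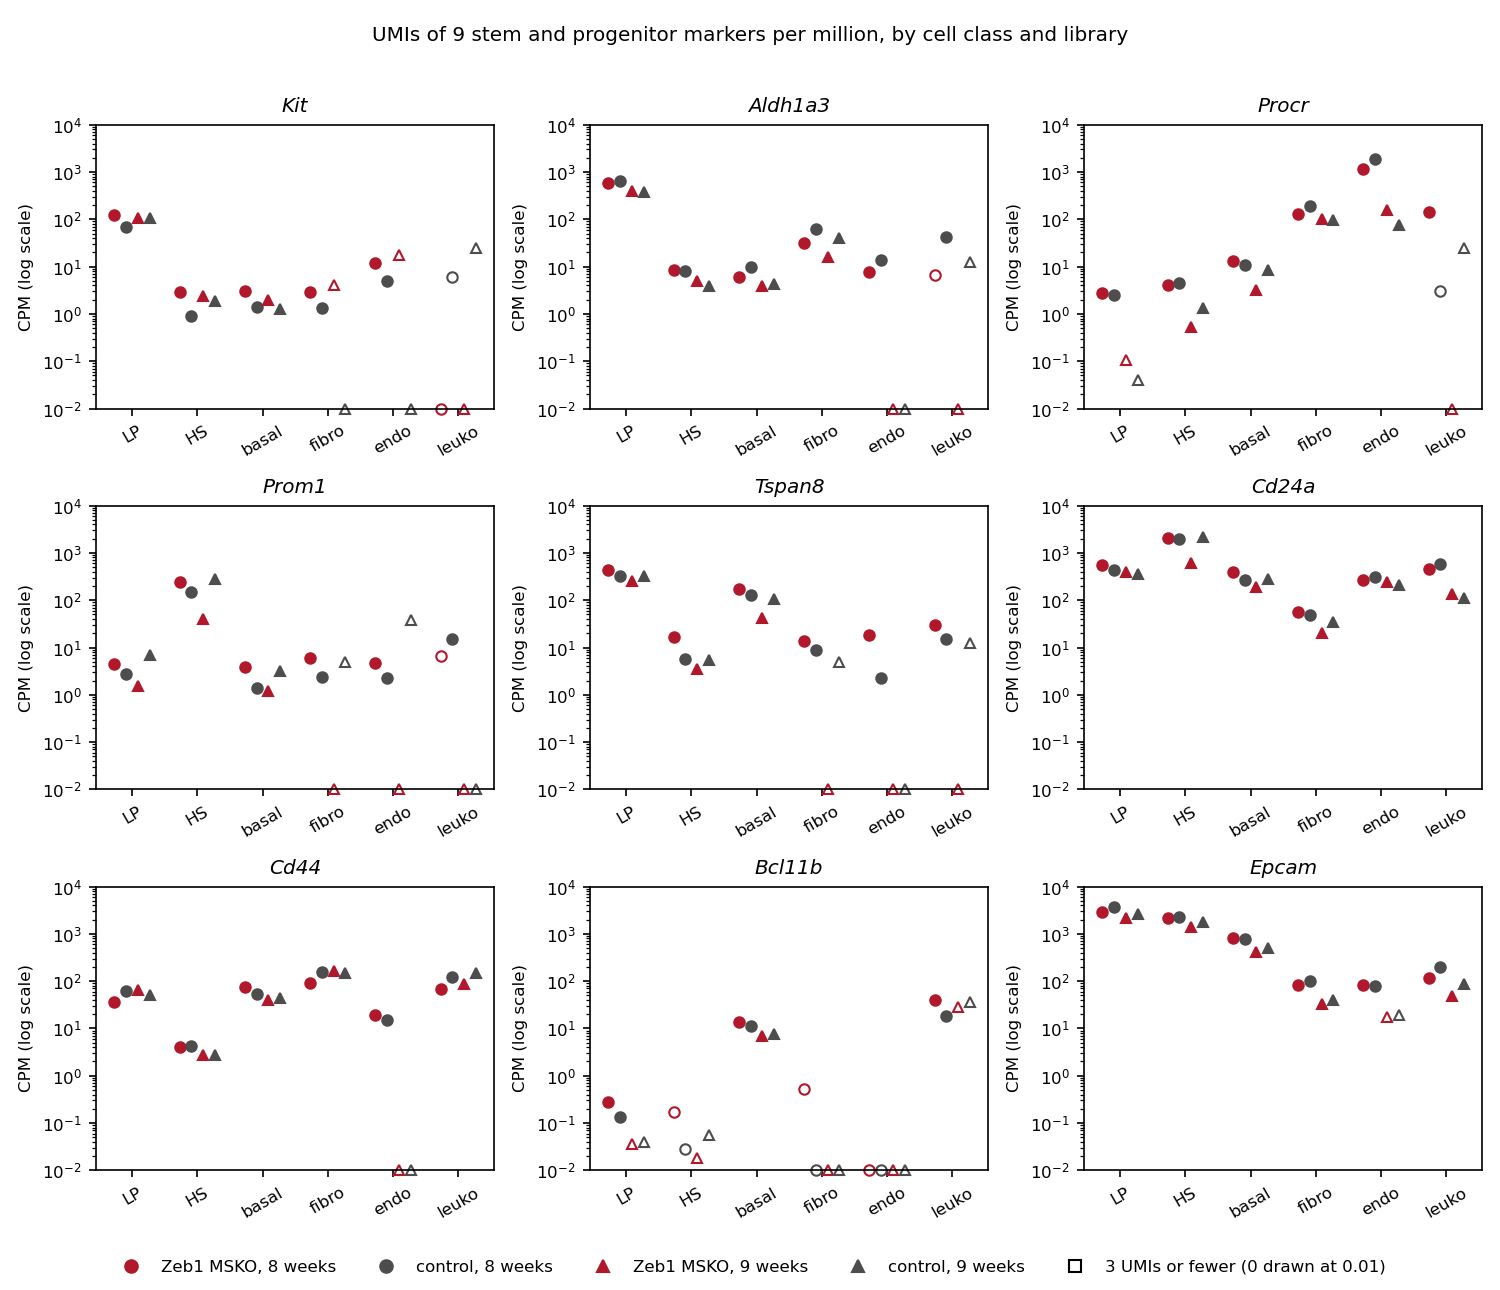
CPM (log scale) of the 9 genes in luminal progenitor (LP), hormone-sensing luminal (HS), basal, fibroblast (fibro), endothelial (endo) and leukocyte (leuko) gates, 1 point per library; red marks Zeb1 MSKO, grey control, circles 8 weeks and triangles 9 weeks. Open points rest on 3 UMIs or fewer; Kit and Aldh1a3 stand highest in luminal progenitor cells, Prom1 and Cd24a in hormone-sensing luminal cells, Bcl11b in basal cells and leukocytes, and Procr stands above its epithelial levels in endothelial cells and fibroblasts.

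Kit encodes the receptor tyrosine kinase for stem cell factor and is a surface marker of luminal progenitors. In luminal progenitor cells Kit stood at 126 and 108 CPM in Zeb1 MSKO at 8 and 9 weeks, against 70.0 and 107 CPM in control. In every library it stood over 40-fold higher in luminal progenitor cells than in the next epithelial class, with ratios of 41.6 and 45.2 in Zeb1 MSKO and 49.5 and 58.2 in control at 8 and 9 weeks. The fitted log2 difference was 5.72 (SE 0.21, adjusted p = 5.4e-09, edgeR) from hormone-sensing luminal cells and 5.79 (SE 0.22, adjusted p = 1.1e-08, edgeR) from basal cells. Kit was detected in 52.7% ± 7.1 of luminal progenitor cells (SD, n = 4 libraries), 2.59% ± 1.24 of hormone-sensing luminal cells and 1.37% ± 0.37 of basal cells. At 8 weeks Kit was found in 1.84% of fibroblasts in Zeb1 MSKO and 0.504% in control (10 and 2 cells), beside 1.81% and 1.02% of basal cells. The part of free RNA in these shares was not tested. Hormone-sensing luminal and basal cells did not pass the test against each other (log2 difference 0.07, SE 0.22, adjusted p = 0.777, edgeR). Kitl, which encodes the KIT ligand, stood highest in basal cells among the epithelial classes, at 134 and 122 CPM in Zeb1 MSKO and 125 and 118 CPM in control at 8 and 9 weeks.

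Aldh1a3 encodes a retinaldehyde dehydrogenase that makes retinoic acid and contributes to the aldehyde dehydrogenase activity used to sort progenitors. It stood at 595 and 388 CPM in luminal progenitor cells of Zeb1 MSKO at 8 and 9 weeks, against 645 and 382 CPM in those of control. Both libraries at 9 weeks were lower than both at 8 weeks, while the genotypes of each age lay close together. No other epithelial library sum exceeded 9.91 CPM. The log2 difference was 6.31 (SE 0.17) from hormone-sensing luminal and 6.45 (SE 0.17) from basal cells, with adjusted p = 1.3e-09 and 2.9e-09 in edgeR. Detection reached 77.1% ± 4.1 of luminal progenitor cells, 6.77% ± 1.6 of hormone-sensing luminal cells and 4.10% ± 1.77 of basal cells (SD, n = 4 libraries). Fibroblasts held Aldh1a3 at 31.9 and 16 CPM in Zeb1 MSKO and 62.4 and 40.0 CPM in control at 8 and 9 weeks, above every hormone-sensing luminal and basal sum. The fibroblast values at 9 weeks rest on 3 positive cells of 31 in Zeb1 MSKO and 5 of 25 in control.

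Tspan8 encodes a tetraspanin reported on a quiescent subset of mammary stem cells. It had 427 and 251 CPM in luminal progenitor cells of Zeb1 MSKO at 8 and 9 weeks and 319 and 330 CPM in those of control. Basal cells came next, with 172 and 41.7 CPM in Zeb1 MSKO and 128 and 104 CPM in control. All 4 libraries gave the same order of classes, and the lowest luminal progenitor sum was above the highest basal sum. Luminal progenitor cells were higher by 1.75 on the log2 scale than basal cells (SE 0.26, adjusted p = 0.00017, edgeR) and by 5.64 than hormone-sensing luminal cells (SE 0.31, adjusted p = 9.4e-08, edgeR). Tspan8 was uneven within the basal gate. It was detected in 24.8% ± 9.3 of basal cells (SD, n = 4 libraries), yet a positive cell held a mean of 3.28 and 3.19 UMIs in Zeb1 MSKO and 3.70 and 3.62 UMIs in control at 8 and 9 weeks. Luminal progenitor markers in the basal gate summed to 2157 and 3202 CPM in Zeb1 MSKO and 1707 and 2272 CPM in control. The part of luminal progenitor RNA in the basal Tspan8 share was not tested. Hormone-sensing luminal cells of the Zeb1 MSKO library at 8 weeks had 16.5 CPM, against 3.49 to 5.62 CPM in the other libraries. Beside this, the summed basal markers stood at 324 CPM in that same sum and at 69.5 to 122 CPM in the others, and their part in the Tspan8 value was not tested.

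Cd44 encodes a hyaluronan receptor used for the basal and stem-enriched fractions. Here it did not separate basal from luminal progenitor cells: basal cells had 75.9 and 38.9 CPM in Zeb1 MSKO and 53.2 and 42.9 CPM in control at 8 and 9 weeks, and luminal progenitor cells had 36.3 and 65.4 CPM in Zeb1 MSKO and 60.8 and 49.7 CPM in control. The ranges overlapped, and the log2 difference of luminal progenitor from basal cells was 0.08 (SE 0.24, adjusted p = 0.812, edgeR). Hormone-sensing luminal cells stood apart with 2.78 to 4.15 CPM, lower by 3.97 on the log2 scale than luminal progenitor cells (SE 0.28, adjusted p = 6.3e-07, edgeR). Cd44 also marked fibroblasts, with 92.9 and 164 CPM in Zeb1 MSKO and 153 and 150 CPM in control.

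Bcl11b encodes a zinc-finger transcription factor known for T-cell commitment and for a quiescent basal population of the mammary gland. It stood low, at 13.5 and 7.04 CPM in basal cells of Zeb1 MSKO and 11.4 and 7.71 CPM in those of control at 8 and 9 weeks. Of 870 UMIs in basal cells, few cells held more than 1, and 6.97% ± 1.29 of basal cells were positive (SD, n = 4 libraries). Luminal progenitor cells had 11 UMIs in all and hormone-sensing luminal cells 7, over 11347 and 9264 cells. Luminal progenitor cells were lower by a log2 difference of -6.46 (SE 0.35) and hormone-sensing luminal cells by -7.34 (SE 0.37) than basal cells, with adjusted p = 1.2e-07 and 3.6e-08 in edgeR, and both fitted values depend on how such low sums are moderated. Basal cells made up 95% to 96.4% of the gated cells with a Bcl11b UMI in each library. The leukocyte gate held 9 and 3 positive cells in Zeb1 MSKO and 4 and 2 in control at 8 and 9 weeks, among 42 and 14 against 44 and 9 cells. Bcl11b stood at 18.4 to 40.6 CPM in the leukocyte gate, from 24 UMIs in all. T or NK markers summed to 0.38 to 1.08 CPM in the basal gate, which by its rule admitted no cell with 3 or more of them.

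Procr encodes the endothelial protein C receptor and has been reported on multipotent basal stem cells. Its levels were higher in endothelial cells and fibroblasts than in any epithelial class of the same library. Endothelial cells had 1143 and 158 CPM in Zeb1 MSKO and 1867 and 75.5 CPM in control at 8 and 9 weeks, where the values at 9 weeks rest on 9 and 4 UMIs in 7 and 10 cells. Fibroblasts had 130 and 100 CPM in Zeb1 MSKO and 190 and 95.1 CPM in control. Basal cells were 34.9% and 51.1% of the gated cells with a Procr UMI in Zeb1 MSKO at 8 and 9 weeks, against 12.6% and 70.3% in control. In the epithelium Procr was highest in basal cells in all 4 libraries, at 13.1 and 3.21 CPM in Zeb1 MSKO and 10.9 and 8.46 CPM in control. Luminal progenitor cells were lower than basal cells by a log2 difference of -3.25 (SE 0.52, adjusted p = 0.00032, edgeR) and hormone-sensing luminal cells by -2.04 (SE 0.47, adjusted p = 0.0025, edgeR). The last call was lost without the library block (adjusted p = 0.109). Procr was found in 5.65% (Wilson 95% interval 5.04 to 6.34) and 1.93% (1.45 to 2.57) of basal cells in Zeb1 MSKO and in 5.59% (4.62 to 6.76) and 7.16% (6.12 to 8.35) in control at 8 and 9 weeks. In luminal progenitor cells it was found in 2.14% and 0.095% in Zeb1 MSKO and 2.28% and 0.038% in control, so these shares were high where the library held many endothelial cells. Whether free endothelial RNA sets them was not tested. At 9 weeks the basal share was 1.93% in Zeb1 MSKO and 7.16% in control, in libraries with 7 and 10 endothelial cells. The most Procr UMIs in 1 basal cell were 18 and 12 in Zeb1 MSKO at 8 and 9 weeks. In control they were 19 and 3. The source of the basal UMIs was not tested. The Wilson intervals leave out the spread between libraries.

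Prom1 encodes the pentaspan membrane protein CD133, a stem cell marker in several tissues that in the mouse mammary gland labels hormone-sensing luminal cells. In these cells it had 244 and 40.1 CPM in Zeb1 MSKO and 146 and 287 CPM in control at 8 and 9 weeks. No luminal progenitor or basal sum exceeded 6.88 CPM. The log2 difference of hormone-sensing luminal from basal cells was 6.10 (SE 0.25, adjusted p = 1.1e-08, edgeR), and that of luminal progenitor from hormone-sensing luminal cells was -5.45 (SE 0.24, adjusted p = 1.8e-08, edgeR). Luminal progenitor cells were called higher than basal cells by 0.65 (SE 0.24, adjusted p = 0.040, edgeR), at 1.53 to 6.88 CPM against 1.2 to 3.94 CPM. That small difference was lost under the stricter gate (adjusted p = 0.0567), without the library block (adjusted p = 0.415), and on leaving out control at 8 weeks (adjusted p = 0.113) or control at 9 weeks (adjusted p = 0.239). Its family member Prom2 was also highest in hormone-sensing luminal cells, at 87.9 and 76.5 CPM in Zeb1 MSKO and 108 and 111 CPM in control.

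Cd24a encodes the heat stable antigen, whose graded surface level divides luminal, basal and stromal cells in flow cytometry. Its RNA followed the same order in each library, hormone-sensing luminal above luminal progenitor above basal. Hormone-sensing luminal cells had 2061 and 599 CPM in Zeb1 MSKO and 1937 and 2180 CPM in control at 8 and 9 weeks, luminal progenitor cells 565 and 398 against 444 and 359 CPM, and basal cells 403 and 189 against 274 and 278 CPM. Hormone-sensing luminal cells were higher than basal cells by 2.55 on the log2 scale (SE 0.25, adjusted p = 5.1e-06, edgeR). Luminal progenitor cells were higher than basal cells by 0.71 (SE 0.24, adjusted p = 0.026, edgeR), a call lost without the library block (adjusted p = 0.138), and on leaving out Zeb1 MSKO at 8 weeks (adjusted p = 0.0618) or control at 8 weeks (adjusted p = 0.0854). Endothelial cells, with 246 to 272 CPM in Zeb1 MSKO and 208 to 310 CPM in control, lay within the range of the basal sums, from 7 and 10 cells at 9 weeks.

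Epcam encodes the epithelial cell adhesion molecule, whose surface level separates luminal (high) from basal (low) cells. Luminal progenitor cells had 2854 and 2106 CPM in Zeb1 MSKO and 3744 and 2572 CPM in control at 8 and 9 weeks, hormone-sensing luminal cells 2132 and 1407 against 2274 and 1749 CPM, and basal cells 830 and 422 against 763 and 513 CPM. The order was the same in each library. Luminal progenitor cells were higher than basal cells by 2.20 on the log2 scale (SE 0.13, adjusted p = 2.0e-07, edgeR) and higher than hormone-sensing luminal cells by 0.55 (SE 0.12, adjusted p = 0.0029, edgeR), and this last call was lost without the library block (adjusted p = 0.0717). Epcam was detected in 94.4% ± 2.3 of basal cells and 32.2% ± 9.1 of fibroblasts (SD, n = 4 libraries). The fibroblast gate also held luminal keratin RNA, with Krt8 at 56.2 to 177 CPM in Zeb1 MSKO and 140 to 145 CPM in control, and the part of free RNA in the Epcam share was not tested.

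Combinations of the 9 genes in single cells were described next. With every cell thinned to 2500 UMIs, a luminal progenitor cell held a mean of 3.23 and 2.83 of the 9 genes in Zeb1 MSKO and 2.98 and 2.86 in control at 8 and 9 weeks, a hormone-sensing luminal cell 2.43 and 1.78 against 2.27 and 2.42, and a basal cell 1.83 and 1.15 against 1.62 and 1.43. Over the pooled epithelium Kit and Aldh1a3 met in 1 cell 2.88 ± 0.78 times as often as the product of their shares (SD, n = 4 libraries), Kit and Tspan8 2.08 ± 0.27 times and Aldh1a3 and Tspan8 2.15 ± 0.28 times. Kit and Prom1 met 0.15 ± 0.04 times as often, Aldh1a3 and Prom1 0.16 ± 0.05 times and Prom1 and Cd44 0.17 ± 0.06 times. Inside the luminal progenitor gate the ratios were close to 1: 1.05 ± 0.03 for Kit and Aldh1a3, 1.02 ± 0.02 for Kit and Tspan8 and 1.05 ± 0.02 for Aldh1a3 and Tspan8. Kit and Cd44 met 0.93 ± 0.04 times as often there. In basal cells the ratio of Tspan8 and Cd24a was 1.15 ± 0.08, above 1 in 4 of 4 libraries, and that of Cd24a and Cd44 was 1.0 ± 0.03. In hormone-sensing luminal cells Prom1 and Cd24a met 1.0 ± 0.01 times as often. Ratios this near to 1 in sparse counts are a description and no finding.

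**Figure D2:**
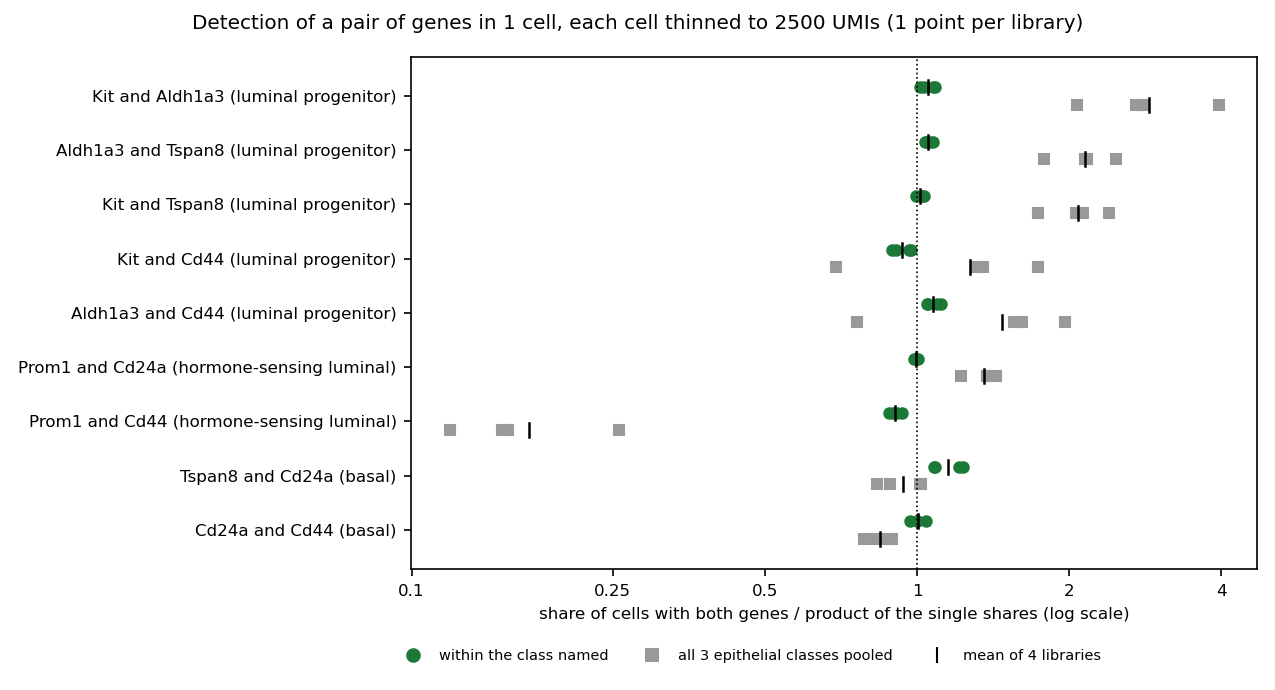
Share of cells with both genes of a pair, divided by the product of the single shares (log scale), with every cell thinned to 2500 UMIs; green points are the 4 libraries within the class named, grey squares the same libraries over the pooled epithelium, black ticks the means. Kit and Aldh1a3 averaged 1.05 within luminal progenitor cells and 2.88 in the pooled epithelium, and Prom1 and Cd44 averaged 0.90 and 0.17.

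Genes whose levels ran most like those of a member were sought over 16 sums of at least 50 cells, from 5 classes and up to 4 libraries each, by Pearson r of log2(CPM + 1) among 7787 candidate genes (mean 10 CPM or more), gate markers left out. The sums share libraries and classes, so r is a description. The closest genes were Muc20 (r = 0.976), Spns3 and Btn1a1 for Kit; Kcnk5 (0.980), S100g and Kcnn4 for Aldh1a3; and Sox10 (0.980), Itgb8 and Paqr6 for Tspan8. They were Dpep2 (0.993), Nrxn3 and Rasgrf1 for Prom1, Adss (0.946), Uchl5 and Utp11l for Cd24a, and Mapk13 (0.985), Galnt3 and Slc9a3r1 for Epcam. Those for Procr were Jam3 (0.980), Jak1 and Gria3, those for Bcl11b Krt42 (0.979), Adgra3 and Gm10354, and those for Cd44 Plce1 (0.945), Zfp36l2 and Spry2. Among the members, Kit and Aldh1a3 had the highest r (0.887), followed by Prom1 and Cd24a (0.767).

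A list of 40 related genes (ligands, family members and other mammary stem or progenitor genes) set the members in context. Of 38 tested, 28 differed between luminal progenitor and hormone-sensing luminal cells (17 higher and 11 lower), 33 between luminal progenitor and basal cells (12 higher and 21 lower) and 34 between hormone-sensing luminal and basal cells (12 higher and 22 lower), beside 56.9%, 56.9% and 70.1% of all genes. Cd14, a lipopolysaccharide co-receptor, was higher in luminal progenitor cells than in basal cells by 6.32 on the log2 scale (SE 0.31, adjusted p = 6.7e-08, edgeR) and than in hormone-sensing luminal cells by 5.04 (SE 0.29). Tspan1, a tetraspanin like Tspan8, took the opposite side, lower in luminal progenitor than in hormone-sensing luminal cells by a log2 difference of -6.31 (SE 0.19, adjusted p = 2.0e-09, edgeR). Has2, a synthase of the CD44 ligand hyaluronan, was lower in luminal progenitor than in basal cells by -6.67 (SE 0.48, adjusted p = 7.4e-07, edgeR). The Notch ligand Dll1 was lower in hormone-sensing luminal than in basal cells by -6.67 (SE 0.45) and Lgr5 by -6.12 (SE 0.34), with adjusted p = 2.7e-07 and 6.7e-08 in edgeR.

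Zeb1 MSKO against control was tested within each class with 2 libraries per genotype. None of the members passed edgeR's test in any class: 0 of 9 tested in basal cells, 0 of 8 in luminal progenitor cells and 0 of 8 in hormone-sensing luminal cells, with Bcl11b below the filter on low counts in both luminal classes. Across all genes edgeR likewise called 0% in each class (0 of 12919, 12817 and 13161 genes). At an unadjusted p under 0.05 it gave 67, 183 and 459 genes in the 3 classes (0.519%, 1.43% and 3.49%), none of them a member, and DESeq2 called 0, 6 and 36 genes, again no member. Adding age as a block called 0, 13 and 1 genes and no member. An exact permutation test of 2 against 2 libraries cannot give a p below 0.33.

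Kit was the only member whose Zeb1 MSKO sums both lay above both control sums, and it did so in all 3 epithelial classes. In all genes tested this held for 9.75% in basal, 13.5% in luminal progenitor and 13% in hormone-sensing luminal cells, so 1 member of 9, 8 and 8 is near the background. Both Zeb1 MSKO sums lay below both control sums for no member, against 5.25%, 7.82% and 16.2% of genes, and the share without overlap in either direction was 15%, 21.3% and 29.3%. In luminal progenitor cells, where Kit is expressed, the ratio of Zeb1 MSKO to control was 1.80 at 8 weeks and 1.01 at 9 weeks, and the fitted log2 fold change was 0.35 (SE 0.30, adjusted p = 1.0, edgeR). It rested on the age of 8 weeks, where Kit was detected in 59.9% (Wilson 95% interval 57.5 to 62.2) of luminal progenitor cells in Zeb1 MSKO and 42.9% (41.4 to 44.5) in control, while at 9 weeks the shares were 53.4% (51.7 to 55.2) and 54.4% (52.5 to 56.3). Each interval covers counting error within 1 library and not the spread between libraries. In basal cells the fold change of Kit was 0.85 (SE 0.49) and in hormone-sensing luminal cells 0.95 (SE 0.51), from levels of 3.02 CPM at most, beside 70.0 CPM or more in luminal progenitor cells. Summed luminal progenitor markers had 2157 and 3202 CPM in the basal gate of Zeb1 MSKO at 8 and 9 weeks. Control had 1707 and 2272 CPM. In the hormone-sensing luminal gate these markers had 355 and 276 CPM against 215 and 240 CPM. Their part in the Kit values of these gates was not tested. The classes come from the same libraries, so they are not separate evidence.

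Epcam had lower values in Zeb1 MSKO at both ages in luminal progenitor cells, with ratios of 0.762 at 8 weeks and 0.819 at 9 weeks and a fitted log2 fold change of -0.41 (SE 0.30, adjusted p = 1.0, edgeR). The same direction was seen in hormone-sensing luminal cells, with ratios of 0.937 and 0.804 and a fold change of -0.15 (SE 0.29). In both classes the Zeb1 MSKO and control ranges overlapped, since both genotypes were lower at 9 than at 8 weeks. Cd24a in luminal progenitor cells had ratios of 1.27 and 1.11 (log2 fold change 0.20, SE 0.29), and Procr in hormone-sensing luminal cells 0.910 and 0.393 (log2 fold change -0.35, SE 1.05). Aldh1a3 had ratios of 0.623 and 0.922 in basal cells (log2 fold change -0.52, SE 0.51) and of 1.01 and 1.27 in hormone-sensing luminal cells (log2 fold change 0.16, SE 0.46). None of these passed the test.

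For the other members the ages disagreed. In basal cells 7 of 9 members had a ratio above 1 at 8 weeks and below 1 at 9 weeks, among them Tspan8 (1.34 and 0.401), Procr (1.2 and 0.379) and Prom1 (2.78 and 0.370). In luminal progenitor cells the direction was the same at both ages for 3 of the 7 members with more than 3 UMIs in each library, and in hormone-sensing luminal cells for 4 of 8. Cd44 in luminal progenitor cells had ratios of 0.596 and 1.32. With 1 library per genotype and age, the direction within an age cannot be tested. The share of all genes tested with each pattern was not counted, so these counts do not set the members apart from other genes.

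**Figure D3:**
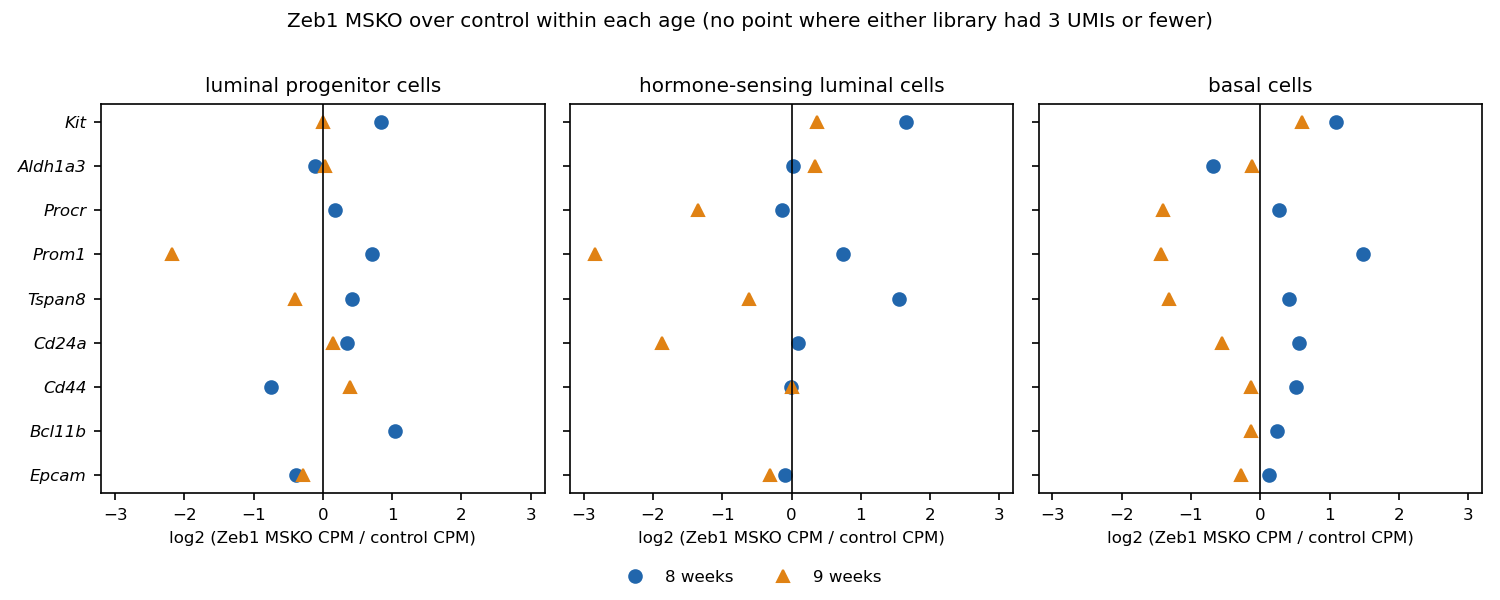
Log2 ratio of Zeb1 MSKO CPM to control CPM within each age for the 9 genes (rows) in 3 epithelial classes; blue circles are 8 weeks and orange triangles 9 weeks, each a ratio of 1 library to 1 library. Most basal members lie right of 0 at 8 weeks and left of 0 at 9 weeks, and Prom1 in hormone-sensing luminal cells lies at 0.74 and -2.84.

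Prom1 and Cd24a, both highest in hormone-sensing luminal cells, had their lowest values there in the Zeb1 MSKO library at 9 weeks. Prom1 was detected in 88.3% (Wilson 95% interval 86.3 to 90.0) and 44.1% (42.4 to 45.9) of these cells in Zeb1 MSKO at 8 and 9 weeks, against 74.6% (72.9 to 76.2) and 90.7% (89.4 to 91.8) in control. The intervals leave out the spread between libraries. Cells with 3 or more Prom1 UMIs were 55.1% and 6.14% in Zeb1 MSKO and 30.2% and 62.6% in control. A cell positive for Cd24a held a mean of 31.1 and 10.7 Cd24a UMIs in Zeb1 MSKO and 26.7 and 33.0 in control, although nearly every cell was positive in each library (98.1% to 99.7%). Both genes were thus low in Zeb1 MSKO at 9 weeks, with ratios to its control of 0.140 for Prom1 and 0.275 for Cd24a, but not in Zeb1 MSKO at 8 weeks, with ratios of 1.67 and 1.06. The fitted log2 fold changes were -0.60 (SE 0.84) for Prom1 and -0.61 (SE 0.57) for Cd24a, both with adjusted p = 0.999 in edgeR. Without the Zeb1 MSKO library at 9 weeks they were 0.16 and 0.0014.

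**Figure D4:**
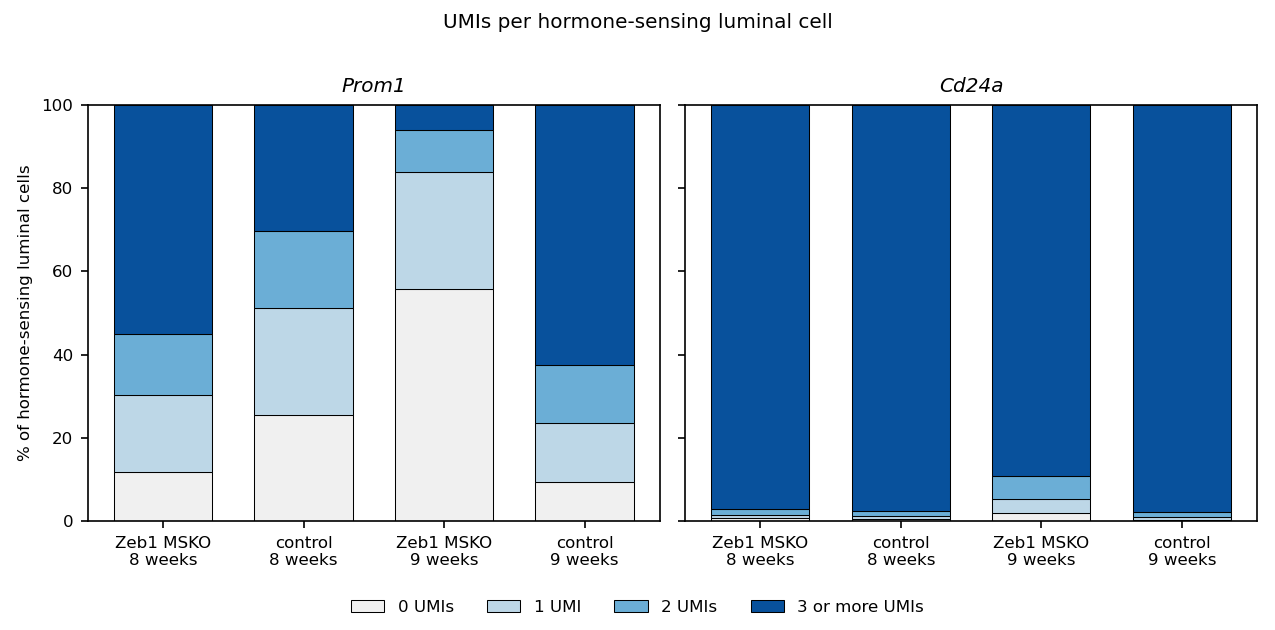
Share of hormone-sensing luminal cells (%) with 0, 1, 2 or 3 and more UMIs of Prom1 (left) and Cd24a (right), 1 bar per library. In the Zeb1 MSKO library at 9 weeks 55.9% of cells had no Prom1 UMI, against 9.35% to 25.4% in the other 3 libraries.

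Some other genes of these cells also stood low in Zeb1 MSKO at 9 weeks, while others stood high. The luminal keratins Krt8, Krt18 and Krt19 summed to 24177 and 12682 CPM in Zeb1 MSKO at 8 and 9 weeks and 22868 and 23943 CPM in control. Krt8 alone had 8050 and 2328 CPM against 6296 and 6779 CPM, and Pgr, the progesterone receptor and a gate marker, had 159 and 82.7 CPM against 155 and 138 CPM. Cited1, a transcriptional co-regulator and also a gate marker, went the other way, with 334 and 1537 CPM in Zeb1 MSKO and 600 and 378 CPM in control. The hormone-sensing luminal gate markers together summed to 7925 and 5515 CPM in Zeb1 MSKO and 7056 and 4849 CPM in control. Among the related genes, Tspan13 had 1074 and 269 CPM in Zeb1 MSKO and 720 and 1445 CPM in control, and Tspan1 287 and 86.6 CPM against 314 and 240 CPM. Ly6a had 387 and 1157 CPM against 774 and 507 CPM, and Cd9 3033 and 2927 CPM against 2698 and 1665 CPM. These genes are examples, and the list was not counted by direction. The hormone-sensing luminal cells of Zeb1 MSKO at 9 weeks were also the deepest, with a median of 17232 UMIs. Whether age, preparation or the state of the tissue sets these values was not tested, and with 1 library they cannot be told apart from genotype.

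Within the list of related genes, 0 of 37, 34 and 33 tested genes passed the genotype test in basal, luminal progenitor and hormone-sensing luminal cells. Among the largest changes with the same direction at both ages and a mean of at least 10 CPM were, in luminal progenitor cells, F3 (tissue factor, log2 fold change -1.02, SE 0.38), Crabp2 (a retinoic acid binding protein, -0.92, SE 0.29) and Tspan13 (-0.82, SE 0.33). In hormone-sensing luminal cells they included F3 (-1.77, SE 0.83) and the integrin gene Itga6 (0.70, SE 0.27), and in basal cells Ly6a (0.63, SE 0.30) and Crabp2 (-0.51, SE 0.61). F3 had 788 and 141 CPM in hormone-sensing luminal cells of Zeb1 MSKO at 8 and 9 weeks and 2170 and 1055 CPM in those of control. Each Zeb1 MSKO value of F3 lay below both control values, as it did for 16.2% of all genes tested in this class.

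Whether the genotype effect differed between classes was tested by an interaction term, blocked on library. Across 14607 genes edgeR called 0% in each of the 3 comparisons. At an unadjusted p under 0.05 it gave 752 genes (5.15%) for luminal progenitor minus hormone-sensing luminal cells, 332 (2.27%) for luminal progenitor minus basal cells and 635 (4.35%) for hormone-sensing luminal minus basal cells, and DESeq2 called 31, 0 and 12, none a member. Members with an unadjusted p under 0.05 were Cd24a, whose effect in luminal progenitor cells exceeded that in hormone-sensing luminal cells by 1.05 on the log2 scale (SE 0.38, adjusted p = 0.870, edgeR), Aldh1a3, whose effect in hormone-sensing luminal cells exceeded that in basal cells by 0.65 (SE 0.26, adjusted p = 1, edgeR), and Prom1, with a difference of -0.95 for hormone-sensing luminal minus basal cells (SE 0.39, adjusted p = 1, edgeR). No difference between classes in the genotype effect on a member was thus established.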

How the data were processed

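UMI counts per gene and cell were deposited as 1 matrix of all 4 libraries; per the submitters' processing notes the authors used Cell Ranger 2.1.0 and the mm10 build. Per the labels' protocols, 10x 3′ v2 libraries were sequenced on an Illumina HiSeq. No source used here states whether aggregation equalised depth. The barcode suffix in the deposited barcodes gives the library, per the labels.

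From the counts as deposited, cells with at most 10% mitochondrial UMIs were gated by the mean of log2(depth-scaled counts + 1) over marker lists, with cells passing several gates left out as possible doublets; Scrublet (scanpy 1.11.5) was an alternative. Gate thresholds were set after seeing marker scores. The members and lists were chosen with earlier results of these data known. UMIs were summed per class and library and tested with edgeR 4.0.16 (quasi-likelihood, TMM, filterByExpr) or, as an alternative, DESeq2 1.42.0, with a threshold of 0.05 on adjusted p; the tests were checked on simulated data. Replicate 1 stands for 8 and replicate 2 for 9 weeks in each genotype; the 9 against 8 week log2 ratios of the genotypes correlated across genes with r of 0.401, 0.308 and 0.264 in basal, luminal progenitor and hormone-sensing luminal cells. Each SE of an edgeR log2 value is its absolute size divided by the square root of the F statistic of its test. Thinned shares are exact expectations at 2500 UMIs. Wilson intervals and the floor of 3 counts cover counting error only. All 9 members are named; related genes are the 5 largest calls at most or, with no call, the 3 largest changes of 1 direction at both ages and a mean of at least 10 CPM. An item that this rule names is not reported here. Free RNA and doublets that remain can add UMIs to any class.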

Additional observations from a re-analysis of the deposited data

Results flagged for a closer look

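Aldh1a3 had a higher Zeb1 MSKO than control value at both ages in hormone-sensing luminal cells and a lower one at both ages in basal cells. The ratios at 8 and 9 weeks were 1.01 and 1.27 in the first class and 0.623 and 0.922 in the second. Those of 1.01 and 0.922 lay near 1. The difference of the log2 effects was 0.65 (SE 0.26), with an unadjusted p of 0.0333 and an adjusted p of 1 in edgeR's test of the difference, so it did not pass. Both classes held Aldh1a3 at under 10 CPM. The gene was flagged for its opposite signs, so the unadjusted p is no separate support for them.

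Among the cells that passed no gate, 190 of the Zeb1 MSKO library at 8 weeks expressed at least 3 keratinocyte or hair follicle markers, against 3 cells in control at 8 weeks and 0 cells in either library at 9 weeks. Of these 190 cells, 184 held Cd24a, 90 held Cd44, 32 held Kit and 10 held Bcl11b. They enter no comparison above.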

How the results depend on the processing

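The number of members called kept within 1.5 times of its value in all 9 comparisons under every setting run, and no genotype call of a member appeared under another normalization, without the filter on low counts, with DESeq2, under the stricter gate, with Scrublet doublets left out, with age as a replicate block, or without any 1 library. Class calls of single members that were lost are given in the text; Procr between luminal progenitor and hormone-sensing luminal cells was called by DESeq2 (adjusted p = 0.0229) and Bcl11b with Scrublet doublets left out (adjusted p = 0.0172). Without the library as a replicate block, 6384, 6366 and 8559 genes were called in the class comparisons. Genotype calls over all genes moved to 48, 93 and 3 in basal, luminal progenitor and hormone-sensing luminal cells without the filter, and to at most 25, 13 and 1 without 1 library; the cause was not tested.

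Of 25 fitted genotype fold changes of members, 21 changed sign when 1 library was left out. Of those given above, the log2 fold change ranged from -1.05 to 0.26 for Aldh1a3 in basal and -0.26 to 0.75 in hormone-sensing luminal cells, from -0.024 to 0.39 for Cd24a in luminal progenitor and -1.72 to 0.0014 in hormone-sensing luminal cells, and, again in hormone-sensing luminal cells, from -2.38 to 0.16 for Prom1, -2.38 to 0.72 for Procr and -0.45 to 0.088 for Epcam. Among class differences without a call, Cd44 in luminal progenitor against basal cells ranged from -0.22 to 0.37, and in hormone-sensing luminal against basal cells Kit ranged from -0.081 to 0.24 and Aldh1a3 from -0.0048 to 0.31. In that comparison Kit was -0.10 with Scrublet doublets left out, and Aldh1a3 was -0.16 with them left out and -0.033 under the stricter gate.

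Of 27 differences in the share of positive cells, 21 changed sign under some setting; leaving out Scrublet doublets for shares was chosen after seeing the data. With cells as deposited, the co-detection ratio was 1.04 for Tspan8 and Cd24a in basal cells and 1.05 for Kit and Cd44 in luminal progenitor cells, the second pair then on the other side of 1. Depth limits Bcl11b, and Kit and Aldh1a3 outside luminal progenitor cells.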

Other observations

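In fibroblasts, Aldh1a3 and Procr were found in the same cell 2.11 ± 0.16 times as often as the product of their shares in the libraries at 8 weeks (SD, n = 2 libraries, 1 of each genotype; at least 45 cells with both in each), while Aldh1a3 and Cd44 met 0.54 ± 0.17 times as often. No test was made of either ratio. In hormone-sensing luminal cells Kit and Aldh1a3, each rare there, met 5.19 ± 1.15 times as often as the product of their shares (SD, n = 4 libraries). Under the stricter gate the ratio was 3.79 ± 1.6. As few as 7 cells of a library held both. Cells with both are counted as deposited, while the ratios use thinned cells. Both genes are common in luminal progenitor cells, and the part of doublets with those cells was not tested. No ratio was taken with Scrublet doublets left out.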
